A study of Mus musculus with 2 samples.

Results

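Cells that carried high levels of both Il17a and Il2 messenger RNA, without Ifng, were singled out from mouse CD8 T cells that had been polarised in culture toward interleukin-17 production (Tc17 cells). Each cell's count of unique molecular identifiers (UMIs, 1 per captured transcript) for a gene was divided by its count over all genes and multiplied by 10000. A co-producer had at least 10 Il17a UMIs and at least 10 Il2 UMIs per 10000, and fewer than 10 for Ifng. There were 466 co-producers among 1727 cells, 371 of 1018 in the library labelled wild type and 95 of 709 in the library labelled Nfatc1-deficient. The 3 genes of this definition are described and never used as support. Every other gene was read in cells picked by those 3 genes, so class differences are descriptions too.

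CD8 T cells were taken with affinity beads from mesenteric lymph nodes of C57/B6N mice. The control animals were wild type, and the other animals carried Nfatc1 f/f with Cd4-Cre, a Cre driven in T cells from their development onward, so that Nfatc1 was to be lost in all T cells and not only in Tc17 cells. Cells of both genotypes were polarised with the CytoBox Th17 kit, then given PMA at 100 ng/ml together with ionomycin at 10 μg/ml during 3 h of restimulation, tagged, and sequenced by a droplet method that reads transcripts near the 3′ end. The labels do not give the age of the mice, or how many were pooled, and there was 1 library per genotype. No test was therefore possible across genotypes, no p-value was computed, and all intervals below are 95% intervals for counting error, which leave out the spread between cells, mice and cultures.

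Nfatc1, the targeted gene, ran against its label in the co-producers. It stood at 167 CPM (a gene's UMIs per 1000000 UMIs of all cells of a class) in the deficient-labelled co-producers and at 45.2 CPM in the wild-type-labelled ones. That is 3.69-fold higher (3.21 to 4.25) in the deficient-labelled library, and 89.5% against 53.6% of co-producers had an Nfatc1 UMI. Tags from outside a deleted part can remain after a deletion, so these values neither check the genotype nor speak against it. The terms wild-type-labelled and deficient-labelled are used for that reason, and each direction between the libraries rests on the labels.

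Interleukin-17A and interleukin-17F are secreted by type 17 T cells and act on epithelial and stromal cells, which answer with chemokines that draw neutrophils. Interleukin-2 is made soon after a T cell is activated, when calcium-driven NFAT, AP-1 and NF-kappaB factors meet at the Il2 promoter, and it feeds back through its receptor and STAT5 to drive growth. In CD4 helper cells that STAT5 signal is known to restrain the type 17 programme. PMA and ionomycin bypass the T-cell receptor and start protein kinase C and calcium signalling directly.

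The promoters of the 2 defining interleukins and of Il17f, the neighbour of Il17a that was not part of the definition, are shown because the calcium and NF-kappaB pathways described below meet at such sequences. Il17a (ENSMUSG00000025929) lies on chromosome 1 from 20730905 to 20734496 on the plus strand, Il17f (ENSMUSG00000041872) on chromosome 1 from 20777146 to 20790617 on the minus strand, and Il2 (ENSMUSG00000027720) on chromosome 3 from 37120523 to 37125959 on the minus strand, in GENCODE M21 (mm10). The sequences are the 250 bases before each RefSeq transcript start on GRCm38.p6, read 5′ to 3′ on the gene's strand, at chr1:20730655-20730904 (plus), chr1:20784271-20784520 (minus) and chr3:37125955-37126204 (minus). The RefSeq start of Il17f lies inside the longer GENCODE gene. Capitals mark GGAAA, the core letters that NFAT factors bind, or its reverse complement TTTCC.
Il17a: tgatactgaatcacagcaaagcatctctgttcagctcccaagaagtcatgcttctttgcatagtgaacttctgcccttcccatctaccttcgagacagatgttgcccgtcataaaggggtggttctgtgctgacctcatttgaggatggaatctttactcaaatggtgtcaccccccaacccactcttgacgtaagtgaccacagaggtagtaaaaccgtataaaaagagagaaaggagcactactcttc
Il17f: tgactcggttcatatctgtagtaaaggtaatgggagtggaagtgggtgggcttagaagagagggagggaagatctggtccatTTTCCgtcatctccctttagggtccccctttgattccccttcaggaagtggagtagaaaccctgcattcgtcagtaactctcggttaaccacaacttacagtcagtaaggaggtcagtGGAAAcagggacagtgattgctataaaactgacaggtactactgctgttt
Il2: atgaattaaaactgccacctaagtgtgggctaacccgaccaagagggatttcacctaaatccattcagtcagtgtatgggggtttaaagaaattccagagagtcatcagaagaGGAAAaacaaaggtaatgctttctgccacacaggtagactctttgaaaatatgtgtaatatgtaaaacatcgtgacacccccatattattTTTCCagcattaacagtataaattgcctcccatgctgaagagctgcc
GGAAA was found on either strand 0 times in the Il17a window, 2 times in that of Il17f and 2 times in that of Il2. Of 32851 RefSeq promoter windows of this length, 55.6% held at least 1 match and 21.4% at least 2. TGANTCA, the letters of an AP-1 site with N for any base, was found 1 time in the Il17a window, overlapping no GGAAA, and 0 times in the other 2 windows, while 6.75% of all windows held it. A match is a description of the letters and not of binding.

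Co-producers made up a larger share of the wild-type-labelled than of the deficient-labelled cells. They were 36.4% of kept cells there (33.5 to 39.5, exact binomial) and 13.4% (11 to 16.1) in the deficient-labelled library. With every cell thinned to 5000 UMIs the shares were 37.1% and 13.3%, which leaves out 14 and 11 shallower cells. Cells with Il17a but neither Il2 nor Ifng at the cutoff, called Il17a producers without Il2 below, were also a larger share of the wild-type-labelled library, at 21.2% (18.7 to 23.9) against 6.06% (4.42 to 8.08). The reverse held for cells with Ifng and Il2 but not Il17a, which were 25 cells (2.46%) in the wild-type-labelled and 238 cells (33.6%) in the deficient-labelled library. Cells with Il2 alone of the 3 genes were 15.4% and 23.3%.

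**Figure D1:**
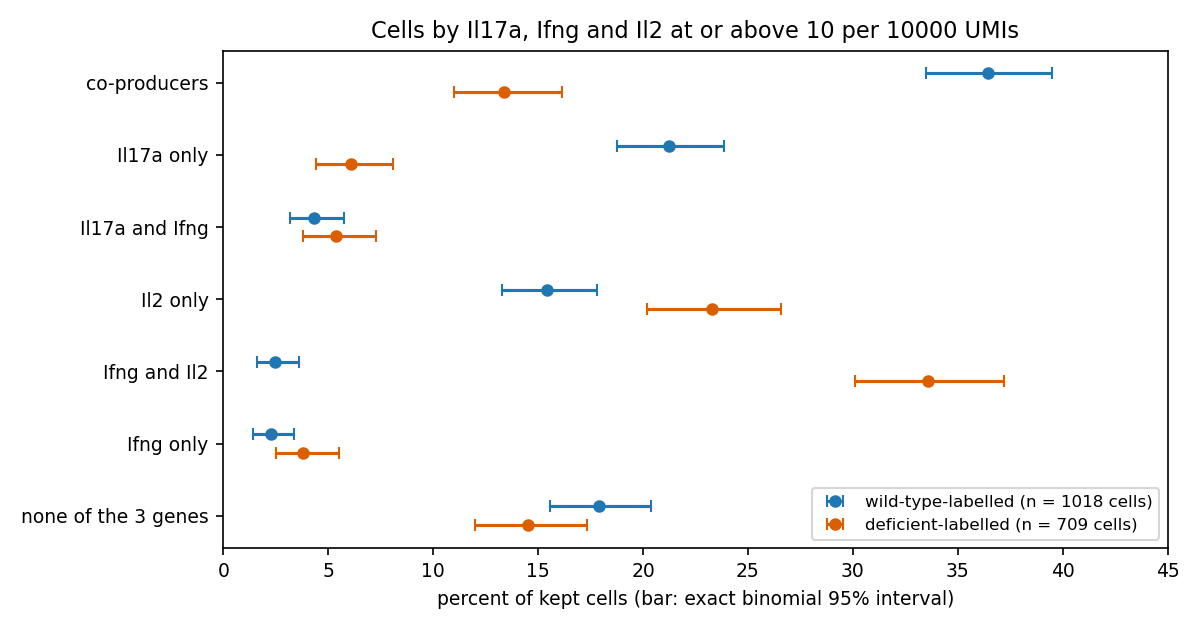
Share of kept cells (percent) in each class set by the cutoffs on Il17a, Ifng and Il2, by library, with exact 95% binomial intervals as bars. Co-producers stand at 36.4% (wild-type-labelled) and 13.4% (deficient-labelled), and cells with Ifng and Il2 at 2.46% and 33.6%.

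The co-producers differed in share between the libraries, whereas the frequency of Il2 among Il17a producers did not differ beyond the counting intervals. Of cells with Il17a at the cutoff and Ifng below it, 63.2% (59.2 to 67.1) passed the Il2 cutoff in the wild-type-labelled library, against 68.8% (60.4 to 76.4) of the deficient-labelled ones, and these intervals overlap. Among cells below the cutoff for both Il17a and Ifng, 46.3% and 61.6% passed it. Cells with Il17a and Ifng passed it in 75% and 92.1%, and cells with Ifng but not Il17a in 52.1% and 89.8%. Il2 was thus carried by cells of every kind, and co-producers were 63.3% (59.3 to 67.2) of all cells at the Il2 cutoff in the wild-type-labelled library and 17.8% (14.7 to 21.3) in the deficient-labelled one. They held 66.8% and 16.2% of each library's Il2 UMIs, 60.4% and 55.1% of its Il17a UMIs, and 53.3% and 38.1% of its Il17f UMIs.

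Within the co-producers the levels of the defining genes spread widely. Il17a ranged from 10.2 to 769 UMIs per 10000 in the wild-type-labelled cells, with a median of 163 and quartiles of 95.3 and 254. In the deficient-labelled cells it ranged from 10.5 to 488, with a median of 133 and quartiles of 72.6 and 224. The ranges overlap over nearly their whole length. Il2 ran from 10.2 to 608 with a median of 95.1 (quartiles 39.0 and 210) in the wild-type-labelled co-producers, and from 10.2 to 484 with a median of 76.4 (35.5 and 166) in the deficient-labelled ones. Cells at the lower edge were few. The members with Il2 between 10 and 20 per 10000 numbered 40 and 10, and the cells that met the other conditions with Il2 between 5 and 10 numbered 33 and 8. The lowest Il2 inside the cutoff was 10.2 in each library and the highest outside it 9.94 and 9.70, while for Il17a the lowest inside was 10.2 and 10.5 and the highest outside 9.19 and 9.09. No Ifng UMI at all was found in 192 (51.8%) and 46 (48.4%) of the members.

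**Figure D2:**
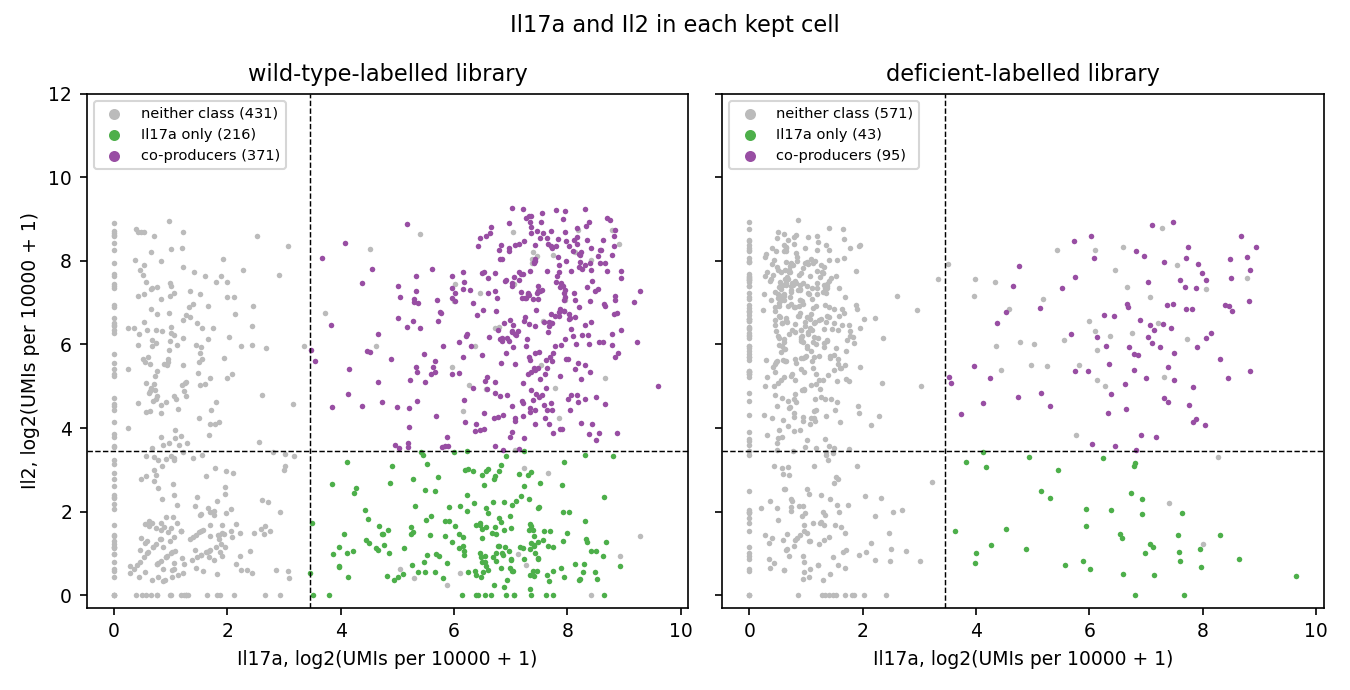
Il17a against Il2 in each kept cell, as UMIs per 10000 on log axes, by library, with dashed lines at the cutoff of 10. Co-producers fill the upper right quadrant, with medians of 163 and 133 for Il17a and 95.1 and 76.4 for Il2, and grey points there are cells that passed the Ifng cutoff.

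The identity of the cells was checked on lists of markers. All co-producers had at least 3 of 10 CD8 T-cell genes, whose summed level was 3608 CPM in the wild-type-labelled and 3499 CPM in the deficient-labelled class. Cd8b1, a chain of the CD8 coreceptor, stood at 313 and 340 CPM, and Trac, the constant part of the alpha receptor chain, at 429 and 503 CPM. Against these, the 2 CD4 helper markers summed to 2.97 and 1.23 CPM, and 7 myeloid markers to 0.685 and 0.410 CPM. Trdc, the delta receptor chain that would mark gamma-delta T cells, was at 0 in the wild-type-labelled and at 1.64 CPM in the deficient-labelled co-producers, and Ncr1, Klrb1c and Klra8, which mark natural killer cells, were at 0 in both. A count of 0 allows up to 0.343 CPM per gene in the wild-type-labelled and 1.23 CPM in the deficient-labelled co-producers. The natural killer list held 5 markers, of which 0 reached 20 CPM in the co-producers of either library. Of 5 dendritic cell markers 1 reached 20 CPM, Batf3, which is also an AP-1 member, at 36.9 and 9.03 CPM. The 7 B-cell markers summed to 39.3 and 51.3 CPM. In Il17a producers without Il2 they summed to 75.6 and 66.5 CPM, and their part in any class difference was not tested. Il17f, a type 17 cytokine that the definition did not use, accompanied the other 2 genes: 93.0% (89.9 to 95.4) and 88.4% (80.2 to 94.1) of co-producers carried at least 10 Il17f UMIs per 10000, against 50.3% and 41.8% of cells with Il2 alone and 40% and 14.7% of cells with Ifng and Il2. Among the other cells with Il17a the shares were nearer, at 89.4% and 79.1% of Il17a producers without Il2 and 84.1% and 78.9% of cells with Il17a and Ifng.

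Depth was alike between the libraries. They held 24452538 and 17898193 UMIs in kept cells, with medians per cell of 20905.5 and 21436. No cell barcode occurred in both, and in each library the same tag led in every kept cell. A doublet caller marked 5 and 6 cells, of which 4 and 1 were co-producers. Of barcodes removed for few genes or many mitochondrial UMIs, 53 of 131 in the wild-type-labelled library and 9 of 45 in the deficient-labelled library would have met the cytokine cutoffs. Heat shock genes, a sign of handling stress, summed to 7473 and 7611 CPM in co-producers and to 7254 and 6978 CPM in Il17a producers without Il2.

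The first comparison asked which other genes separated co-producers from the 216 and 43 Il17a producers without Il2, a contrast in which Il17a was high on each side. Co-producers carried more transcripts of tumour necrosis factor, CC chemokines, CD40 ligand, activin A and NF-kappaB regulators. They carried fewer of Ctla4, the costimulatory receptors Icos, Cd28 and Cd226, and lymphotoxin alpha. Mitotic genes were lower too, but those under 20 CPM in co-producers were tested only because they were high in the comparison cells. A gene was called higher or lower when it reached 20 CPM in a class of each library and differed at least 1.5-fold the same way in both libraries, on log2 of CPM plus 1. Of 5415 genes tested, 71 were higher (1.31%) and 340 lower (6.28%), 7.59% in all, 1 of the higher ones being Il2 itself. Counts within gene lists in this comparison are to be read beside these shares. With TMM scaling in place of the plain UMI totals, 156 were higher and 198 lower, and the median over all genes moved by 0.20 and 0.10 on the log2 scale. Below, a level "against" another gives the co-producers first, and of paired values the wild-type-labelled library comes first. Of the 70 higher genes other than Il2, 69 were called under TMM as well, and 16 were called under each of 5 alternatives (TMM, a mean over per-cell CPM, thinned cells, the top cell of each gene left out, and cells rich in mitotic transcripts left out). Those 16 were Xcl1, Slamf7, Prrg4, Nr4a3, Cd69, Nfkbid, Rel, Kdm6b, Cdk5r1, Ccl3, Ccl4, Inhba, Ndrg1, Tnf, Jak2 and Cd40lg. Of the 340 lower genes, 83 were called under all 5.

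Tnf, a proinflammatory cytokine induced rapidly on T-cell activation, stood at 434 CPM in co-producers and 157 CPM in Il17a producers without Il2 of the wild-type-labelled library. In the deficient-labelled library it stood at 691 and 170 CPM. The differences were 2.76-fold (2.58 to 2.96) and 4.06-fold (3.5 to 4.73), and 96.5% and 95.8% of co-producers carried a Tnf UMI, so the level was not that of a few cells. Cd40lg, the ligand by which helper cells license dendritic cells and B cells, was at 62.8 against 4.21 CPM and at 62.0 against 12.1 CPM. It was carried by a minority of cells, with a UMI in 14.0% and 13.7% of co-producers against 6.02% and 9.30% of the comparison cells. Without the top cell of each class the Cd40lg levels were 55.0 against 3.16 CPM and 38.6 against 2.59 CPM. Inhba, which encodes the subunit of activin A, a TGF-beta family ligand, was 2.90-fold higher (2.72 to 3.09) in the wild-type-labelled library, at 541 against 187 CPM. In the deficient-labelled library it was 7.11-fold higher (5.31 to 9.73), at 295 against 41.4 CPM, with 20.6% of its UMIs in 1 co-producer. Of 11 tested genes in a list of other T-cell cytokines, 6 were higher (Tnf, Il3, Areg, Tnfsf8, Tnfsf9 and Tnfsf14) and 1 lower, with medians of 0.76 and 0.83 on the log2 scale against medians over all tested genes of -0.08 and -0.03. The lower one was Lta, encoding lymphotoxin alpha, which lies next to Tnf on chromosome 17. Lta was measured at 86.2 against 235 and at 62.4 against 221 CPM, 2.73-fold (2.50 to 2.98) and 3.54-fold (2.89 to 4.36) lower, so the neighbours Tnf and Lta went opposite ways. Both kept their call under all 5 alternatives, while the count of higher genes in the list lay between 1 (thinned cells) and 6.

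Il3 and, in the wild-type-labelled library, Areg were carried by few cells. Il3, a growth factor for blood-forming cells, had 280 UMIs in the wild-type-labelled co-producers, but only 2.43% of the cells held any and 34.3% of the UMIs came from 1 cell. Against 2 and 1 UMIs in the comparison classes its ratios were 106 (29.2 to 882) and 83.7 (14.8 to 3323). In the deficient-labelled class 85.2% of Il3 UMIs came from 1 cell. Areg, an epidermal growth factor receptor ligand linked to tissue repair, was at 22.9 against 4.66 CPM and at 163 against 38.0 CPM, with a UMI in 9.16% and 45.3% of the co-producers. Il3 kept its call under 3 of the 5 alternatives and Areg under 1.

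Of 8 chemokine genes listed 4 were tested, and all 4 were higher, beside 1.31% of all tested genes. The list medians were 1.71 and 1.80. Without the top cell of each gene 3 of the list were higher. Ccl4, which attracts T cells and macrophages, was the most abundant of the CC chemokines at 7497 against 1868 CPM in the wild-type-labelled library and 17513 against 4996 CPM in the deficient-labelled one. These are 4.01-fold (3.94 to 4.09) and 3.51-fold (3.41 to 3.60) differences. Ccl3, a related chemokine, was at 746 against 275 CPM and at 3317 against 513 CPM. Xcl1, which draws cross-presenting dendritic cells, was 3.27-fold higher (3.22 to 3.32) in the wild-type-labelled co-producers and 1.5-fold higher (1.48 to 1.53) in the deficient-labelled ones, the latter at the edge of the size rule. Ccl5 was low but followed, at 23.1 against 6.31 CPM and 32.4 against 8.63 CPM. It reached 20 CPM only in co-producers, so it could only be called higher.

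Of 12 NF-kappaB genes, 6 were higher and 0 lower, and all 12 lay above 0 in both libraries, with medians of 0.68 and 0.81. Over all tested genes 1.31% were higher, and 1625 of 5412 lay above 0 in both libraries. Rel, the c-Rel subunit that acts at the Il2 promoter, was measured at 259 against 103 and at 421 against 201 CPM, 2.52-fold (2.31 to 2.75) and 2.10-fold (1.82 to 2.43) higher. Nfkbid, an atypical inhibitor family member that works with c-Rel, was at 339 against 161 CPM and at 413 against 169 CPM. Nfkbiz, the IkappaB-zeta regulator used by type 17 cells, was at 103 against 49.5 CPM and 83.7 against 32.8 CPM, and Nfkb1, Nfkbib and Tnfaip3 were the other 3. Under the 5 alternatives between 3 and 8 of the list were higher, the 3 being without the mitosis-rich cells. Among 17 early response factors 4 were higher and 2 lower, with medians of 0.31 and 0.62. By a mean over per-cell CPM the first median was -0.24, and under the 5 alternatives between 1 and 8 were higher. Nr4a1 and Nr4a3, orphan nuclear receptors induced by antigen receptor signals, were higher, the first at 57.8 against 27.4 CPM and 90.7 against 39.7 CPM and the second at 79.0 against 39.4 CPM and 266 against 129 CPM. Fosb and Fosl1 were higher too, whereas the AP-1 members Jund (201 against 413 CPM and 197 against 403 CPM) and Batf3 (36.9 against 140 CPM and 9.03 against 31.9 CPM) were lower, Batf3 under only 1 of the 5 alternatives and Jund under all 5. Cd69, a surface marker of recent activation, was 2.12-fold (2.0 to 2.25) and 2.06-fold (1.80 to 2.37) higher. Of 5 genes of MAP kinase feedback, Spry1 and Dusp2 were higher, Dusp2 at 644 against 336 CPM and 428 against 269 CPM. Of this list 1 was higher by a mean over per-cell CPM and in thinned cells, and 0 without the mitosis-rich cells.

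Of 17 tested type 17 genes that the definition did not use, 0 were higher and 2 lower by the size rule. Over all tested genes 7.59% were called in either direction. The list medians were -0.02 and -0.21 (0.18 under TMM for the first). Il17f was 1.43-fold above the comparison cells in both libraries, at 12280 against 8587 CPM and 10998 against 7696 CPM, short of the size rule. Per cell its median was 114 and 91.7 UMIs per 10000 in co-producers and 82.7 and 63.9 in Il17a producers without Il2, and the quartile ranges overlap. Rora, a lineage factor of type 17 cells, was at 331 against 335 CPM and at 390 against 371 CPM. The lower genes were Ccr6, the receptor for CCL20 (48.9 against 97.3 CPM and 35.3 against 86.3 CPM), and Maf, a factor that supports Il10 (6.74 against 70.2 CPM and 19.3 against 36.3 CPM). Ccr6 kept its call under all 5 alternatives and Maf under 2. Maf, under 20 CPM in co-producers of both libraries, was tested only because it was high in the comparison cells.

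In the list of IL-2 receptor and STAT5 target genes 0 of 11 were higher and 0 lower by the size rule, beside 7.59% of all tested genes called in either direction, with medians of -0.21 and 0.03 (-0.24 for the second by a mean over per-cell CPM). Il2ra, the high-affinity receptor chain and itself a STAT5 target, was at 674 against 897 CPM in the wild-type-labelled library and at 571 against 478 CPM in the deficient-labelled library, with 18.2% of its UMIs in 1 deficient-labelled co-producer. The deficient-labelled log2 ratio of Il2ra was 0.26, and it was -0.03 by a mean over per-cell CPM and -0.07 in thinned cells. The calcium and NFAT list also had 0 of 12 higher and 0 lower, with medians of -0.40 and 0.00. Nfatc1 was at 45.2 against 24.2 CPM and 167 against 130 CPM, the second short of 1.5-fold. Nfatc2 was at 16.7 against 36.5 CPM and 7.39 against 12.1 CPM.

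Receptors of costimulation and inhibition were split. Of 12 helper-like costimulation genes 2 were higher (Cd40lg and Cd69) and 3 lower (Icos, Cd28 and Cd226), with medians of -0.06 and -0.26. Of 10 genes in the inhibitory receptor list Cd160 was higher and Ctla4 lower. Ctla4, which competes with CD28 for B7 ligands, was measured at 45.9 against 109 and at 48.8 against 135 CPM, 2.38-fold (2.11 to 2.70) and 2.76-fold (2.16 to 3.53) lower. Icos was at 116 against 273 CPM and 74.3 against 167 CPM, and Cd28 at 20.7 against 39.8 CPM and 37.8 against 67.3 CPM. Cd226, an activating receptor of CD8 T cells, was at 75.2 against 127 CPM and 77.6 against 190 CPM. Cd8a itself was lower, at 80.3 against 177 CPM and 116 against 308 CPM, with Lck, the kinase it carries, at 101 against 155 CPM and 99.7 against 172 CPM. Slamf7, an activating receptor of the SLAM family, was 2.56-fold (2.30 to 2.85) and 2.48-fold (2.09 to 2.94) higher, and Cd160, a receptor for HVEM, was at 168 against 74.6 CPM and 896 against 536 CPM. Tgfbr3, a coreceptor for TGF-beta, was lower as well, at 9.36 against 64.9 CPM and 5.75 against 28.5 CPM. With under 20 CPM in co-producers of both libraries, it was tested only because it was high in the comparison cells. Ctla4, Icos, Cd8a and Tgfbr3 kept their calls under all 5 alternatives, Cd226 and Cd160 under 4, Cd28 under 2 and Lck under 0.

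Mitotic genes were among the 340 lower ones. Of 23 tested G2/M genes 20 were lower and 0 higher, and all 23 lay below 0 in both libraries, with medians of -1.50 and -1.24. Over all tested genes 6.28% were lower, and 2273 of 5412 lay below 0 in both libraries. Ccnb2, a mitotic cyclin, was at 6.74 against 37.4 CPM and 10.7 against 59.6 CPM, and Plk1, a kinase of mitotic entry, at 5.14 against 20.9 CPM and 5.33 against 30.2 CPM. Genes like these, under 20 CPM in co-producers, were tested only because they were high in the comparison cells. That filter partly sets the counts and medians of this list. Against all other kept cells 13 of the list were tested, with 0 higher and 0 lower. By a mean over per-cell CPM 11 of the list were lower, and in thinned cells 10. The list was high in a minority of cells. Cells with at least 10 UMIs of the list per 10000 were 7.82% (5.30 to 11) and 8.42% (3.71 to 15.9) of the co-producers and 20.8% (15.6 to 26.9) and 16.3% (6.81 to 30.7) of the Il17a producers without Il2, and the intervals for the deficient-labelled library overlap. Those cells were large, with a median of 37821 UMIs against 21218 in the other wild-type-labelled co-producers. With them left out of every class, a step chosen after seeing the data, 0 of the G2/M genes remained called. Those cells were picked by UMIs of the same list, so nothing is read from that 0. Of all calls, 30 of the 70 higher genes remained, and 176 of the 340 lower ones, which include the G2/M genes. Of the 16 S-phase genes 2 were lower, with medians of -1.23 and -0.07.

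For 4 further lists the called genes are given beside 7.59% of all tested genes called in either direction. Among 16 glycolysis genes only Eno1 was lower (89.9 against 225 CPM and 85.8 against 147 CPM), and among 13 sterol and lipid synthesis genes Idi1 and Acly were higher, at 162 against 98.8 CPM and 181 against 112 CPM for Idi1 (Idi1 and Acly under 2 of the 5 alternatives). Of 14 cytotoxic and type 1 genes 2 were lower, Il12rb1 among them, and Tbx21, the type 1 lineage factor, was at 22.7 against 25 CPM and 12.3 against 9.50 CPM. Of 9 genes of cytokine mRNA decay 1 was higher, Zc3h12a, the Regnase-1 nuclease that degrades cytokine transcripts, at 51.8 against 32.5 CPM and 52.1 against 30.2 CPM, and 2 were lower (Zc3h12d and Arid5a). Il4 was at 0 in the co-producers of both libraries, which allows up to 0.343 and 1.23 CPM.

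**Figure D3:**
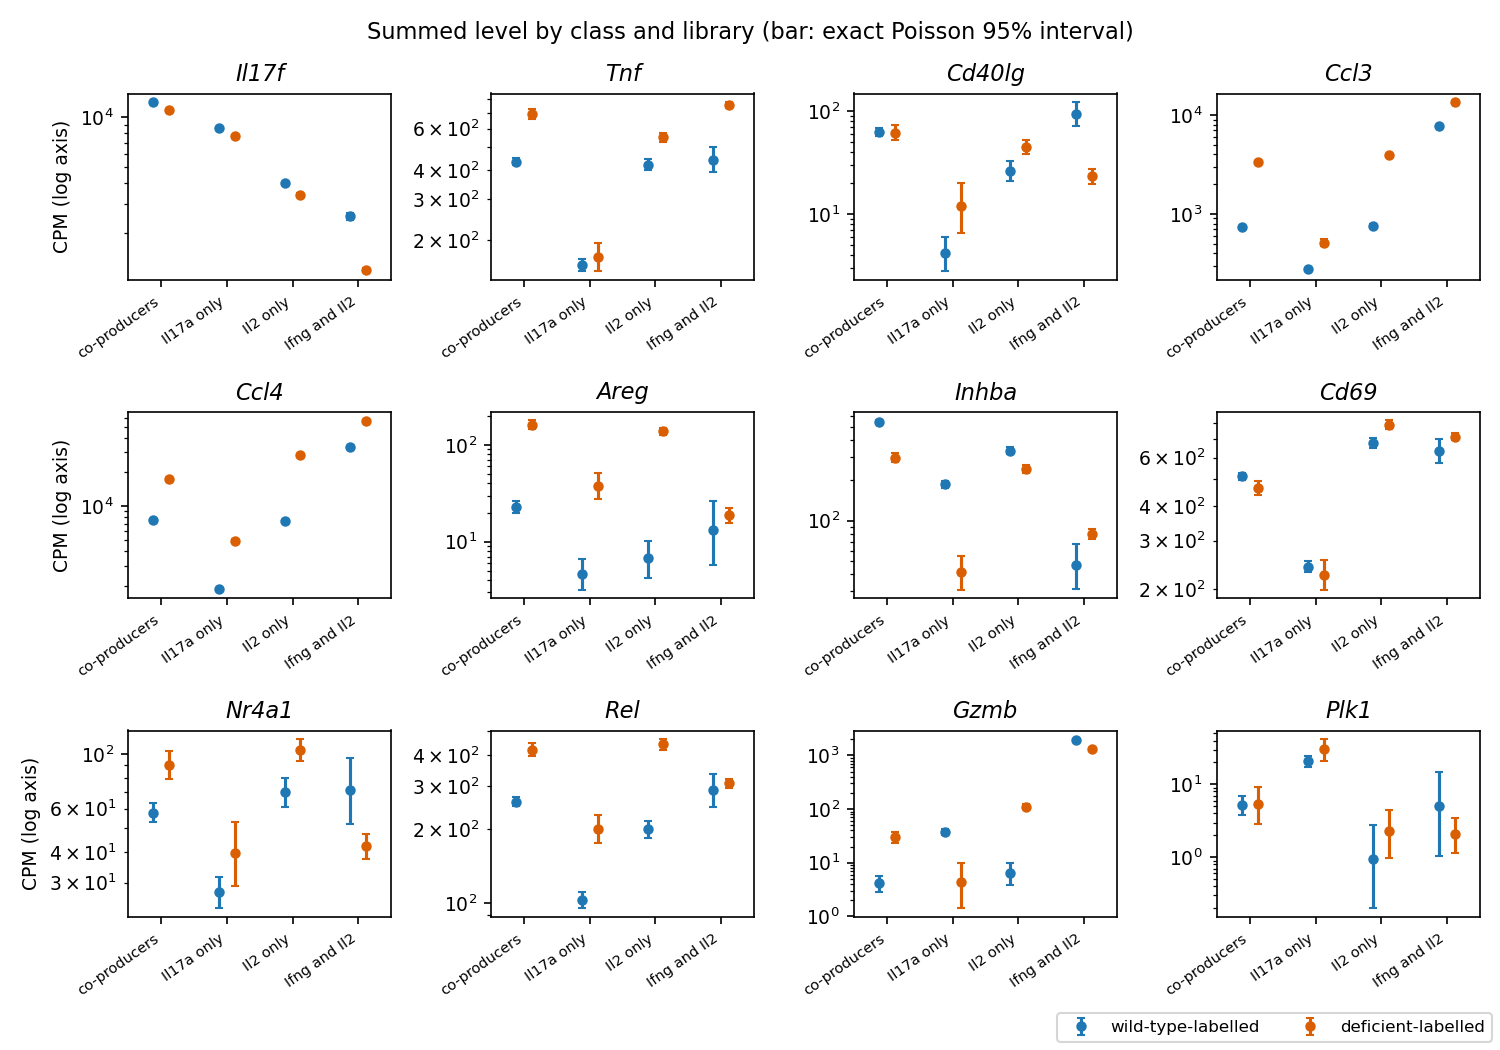
CPM on a log axis of 12 genes in co-producers, Il17a producers without Il2, cells with Il2 alone and cells with Ifng and Il2, by library, with exact Poisson 95% intervals of counting error. Tnf of the co-producers lies near that of the other Il2 producers, while Gzmb is at 4.11 and 29.5 CPM in co-producers and at 1909 and 1300 CPM in cells with Ifng and Il2.

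Set beside the other cells with Il2, co-producers shared some of these levels and not others. Tnf was at 420 and 551 CPM in cells with Il2 alone and at 442 and 759 CPM in cells with Ifng and Il2, near the 434 and 691 CPM of co-producers. Cd69 was at 677 and 788 CPM in cells with Il2 alone, above the 513 and 465 CPM of co-producers. Ccl4 was higher still in cells with Ifng and Il2, at 33258 and 56607 CPM. Inhba ran the other way, at 46.6 and 80.0 CPM in cells with Ifng and Il2 and at 332 and 241 CPM in cells with Il2 alone, below the 541 and 295 CPM of co-producers. Ccr6, though lower in co-producers than in Il17a producers without Il2, was at 10.6 and 8.20 CPM in cells with Il2 alone and at 0 and 1.64 CPM in cells with Ifng and Il2, where the 0 allows up to 4.99 CPM.

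Against all other kept cells, 647 and 614 in number, fewer genes separated the co-producers. Of 5220 tested, 30 were higher (0.575%), Il17a among them, and 27 lower (0.517%), Ifng among them, 1.09% in all. By a mean over per-cell CPM the counts were 26 and 58. Il17f led in abundance, at 12280 against 6006 CPM and 10998 against 2822 CPM, 2.04-fold (2.03 to 2.06) and 3.90-fold (3.84 to 3.96) higher. Il1r2, the decoy receptor for interleukin-1, was at 248 against 93.0 CPM and 592 against 201 CPM, with 18.0% of its deficient-labelled UMIs in 1 co-producer. Against Il17a producers without Il2, its deficient-labelled log2 ratio was only 0.20, and -0.24 by a mean over per-cell CPM. Of 16 type 17 genes 4 were higher (Il17f, Il21, Il1r1 and Tnfsf11) and 1 lower (Il18r1), with medians of 0.06 and 0.41 beside -0.05 and 0.06 over all tested genes. Inhba was 2.79-fold (2.66 to 2.92) and 2.66-fold (2.43 to 2.90) higher, and Cd40lg 4.81-fold (4.09 to 5.67) and 2.50-fold (2.06 to 3.03). Mmp13, a collagenase, was at 58.6 against 13.7 CPM and 35.3 against 12.1 CPM. It was carried by few cells, with a UMI in 8.09% and 9.47% of co-producers and 14.8% and 37.2% of its UMIs in 1 cell. Tnf and Cd69 did not pass here, Tnf at 434 against 264 CPM and 691 against 567 CPM, and the other cells include the remaining Il2 producers.

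Gzmb, the main granule protease of killer cells, was lower against all other kept cells, at 4.11 against 184 CPM and at 29.5 against 859 CPM, 44.8-fold (32.3 to 64.0) and 29.1-fold (23.1 to 37.2) lower. Il10, an anti-inflammatory cytokine, was at 10.3 against 143 CPM and 14.8 against 265 CPM. Il24 was at 8.22 against 75.1 CPM in the wild-type-labelled library, and in the deficient-labelled one it had 0 UMIs in co-producers, which allows up to 1.23 CPM, against 36.4 CPM. Ifitm1, an interferon-induced membrane protein, was at 5.59 against 71.4 CPM and 2.05 against 64.1 CPM. Fos, an AP-1 member, was at 3.54 against 33.0 CPM and 12.7 against 33.2 CPM. Il10, Il24, Ifitm1 and Fos lay under 20 CPM in co-producers of both libraries. They were tested only because they were high in the other cells, and could only be called lower. The same held for Gzmb in the wild-type-labelled library. Co-producers lie below the Ifng cutoff by definition, and the Gzmb level of cells with Ifng and Il2 was 1909 and 1300 CPM. Of 14 cytotoxic and type 1 genes 3 were lower (Gzmb, Nkg7 and Serpinb9), with 0 higher.

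Among the co-producers themselves, cells with more Il2 carried more transcripts of several activation genes. The members were split by Il2 into bands of 10 to 50, 50 to 150 and at least 150 UMIs per 10000, holding 117, 120 and 134 wild-type-labelled and 35, 33 and 27 deficient-labelled cells, with median depths between 19360 and 22692 UMIs. Tnf stood at 347, 376 and 578 CPM in the wild-type-labelled bands and at 267, 416 and 1475 CPM in the deficient-labelled ones. Cd40lg stood at 3.13, 38.7 and 145 CPM and at 31.6, 27.7 and 134 CPM. In both libraries the top band was thus the highest for these 2 genes, and the order of the lower bands differed for Cd40lg. Single cells weighed on the deficient-labelled values, in which 1 co-producer held 19.8% of the Tnf UMIs and 1 held 37.7% of the Cd40lg UMIs. Cd69 stood at 391, 417 and 727 CPM and at 437, 419 and 547 CPM, and Nr4a3 at 47.3, 65.8 and 123 CPM and at 241, 264 and 296 CPM. Ccl3 stood at 414, 452 and 1366 CPM and at 2294, 3407 and 4379 CPM, in the order of Il2 in both libraries. Il2ra and Rcan1 were not highest in the top band of either library. Il2ra stood at 565, 733 and 721 CPM and at 457, 716 and 541 CPM, and Rcan1 at 10.1, 6.78 and 7.49 CPM and at 11.7, 13.2 and 5.31 CPM. The bands are cut on a defining gene. Tnf, Cd40lg, Cd69, Nr4a3 and Ccl3 had already been called higher against Il17a producers without Il2, so their order is a description. Il21, which was not called there, was also highest in the top band of both libraries. It stood at 19.5, 37.0 and 88.9 CPM and at 10.5, 21.7 and 38.5 CPM. Ccl4, which was called higher there, stood at 4854, 5431 and 12156 CPM and at 13132, 20143 and 19577 CPM. Per cell, the median of Tnf went from 2.17 to 4.69 UMIs per 10000 between the outer bands in the wild-type-labelled library and from 2.31 to 6.67 in the deficient-labelled one.

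Il17a and Il2 both define the members, so their values here are descriptions. Il17a was at 15448, 19515 and 21119 CPM in the wild-type-labelled bands and at 11746, 15645 and 16214 CPM in the deficient-labelled ones. Il17f was at 10783, 11784 and 14242 CPM in the wild-type-labelled bands and nearly level in the deficient-labelled ones, at 11005, 10692 and 11329 CPM. Nfatc1 had no steady order, at 47.3, 35.3 and 53.1 CPM and at 183, 169 and 147 CPM. Across cells, with 371 and 95 points that share a library each, the Spearman coefficient was 0.53 and 0.45 between Il17a and Il17f, 0.38 and 0.52 between Il2 and Tnf, and 0.23 and 0.26 between Il17a and Il2. The coefficients of Il17a, Il17f and Il2 with a cell's total UMIs lay between -0.17 and 0.08.

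**Figure D4:**
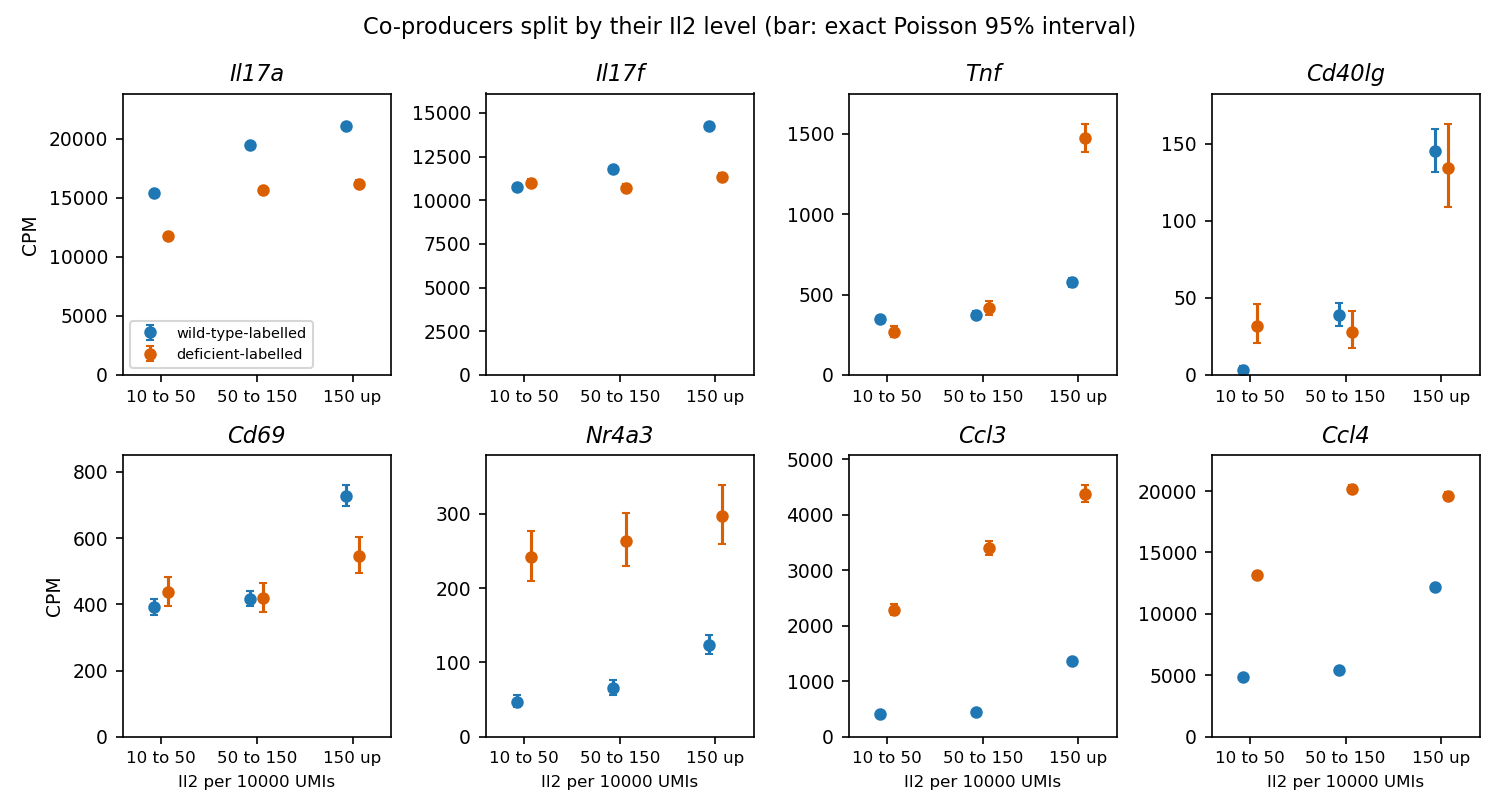
CPM on a linear axis of 8 genes in co-producers split by Il2 level (10 to 50, 50 to 150 and at least 150 UMIs per 10000), by library, with exact Poisson 95% intervals of counting error. Tnf and Cd40lg are highest in the top band of each library (578 and 1475 CPM for Tnf, 145 and 134 CPM for Cd40lg), while Il17f stays between 10692 and 14242 CPM.

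The last comparison set the deficient-labelled against the wild-type-labelled co-producers, to ask how the labelled genotype bears on cells of the same cytokine class. The defining cytokines, by which the cells were picked, lay within 2-fold. Chemokines and 3 genes of the inhibitory receptor list were higher in the deficient-labelled cells, and sterol synthesis and amino acid stress genes lower. A gene was called at 20 CPM in 1 library and a 2-fold difference, and "against" here gives the deficient-labelled level first. Of 5626 tested, 285 were higher (5.07%) and 75 lower (1.33%) in the deficient-labelled co-producers, 6.4% in all, or 186 and 121 with TMM scaling, which moved the median over all genes by -0.21 from 0.15. Under all 5 alternatives named above 108 of the 285 and 54 of the 75 were called. Differences between the libraries cannot be told apart from differences between mice or cultures.

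Il17a was at 14455 against 18719 CPM, Il17f at 10998 against 12280 CPM and Il2 at 11423 against 13743 CPM, all within 2-fold. Il17a and Il2 picked the cells of both libraries, so their closeness is partly set by the definition. Tnf (691 against 434 CPM), Inhba (295 against 541 CPM) and Cd40lg (62.0 against 62.8 CPM) were within 2-fold as well. Ccl3 was 4.45-fold higher (4.30 to 4.6) in the deficient-labelled co-producers, Ccl4 2.34-fold (2.31 to 2.36) and Xcl1 2.13-fold (2.10 to 2.15). Xcl1 was not called under TMM. Of 5 chemokine genes 4 were higher, with a median of 1.22 beside 0.15 over all tested genes. The same contrast in all other kept cells gave larger log2 ratios for Ccl3 (3.21), Ccl4 (2.73) and Xcl1 (2.77) on the same side of 0. Cd160 was at 896 against 168 CPM, 5.33-fold higher (4.98 to 5.69), with Pdcd1, which encodes PD-1, at 63.2 against 19.98 CPM and Tox, an exhaustion-linked factor, at 34.9 against 7.19 CPM. These were the 3 of 12 genes in the inhibitory receptor list called higher, with 0 lower, and Tox is not itself a receptor. Areg was at 163 against 22.9 CPM, 7.08-fold higher (5.96 to 8.43), with a UMI in 45.3% against 9.16% of cells.

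Several of the largest ratios rested on few cells. Ccl1, a ligand of CCR8, was at 302 against 3.77 CPM, but 68.3% of its UMIs in the deficient-labelled co-producers came from 1 cell, and without the top cell of each class it was at 95.6 against 2.74 CPM. Penk, the precursor of enkephalins, was at 667 against 19.98 CPM and, without the top cells, at 458 against 6.96 CPM. It had a UMI in 21.1% of the deficient-labelled and 3.5% of the wild-type-labelled co-producers. Shtn1 had 173 UMIs in 12.6% of deficient-labelled co-producers and 1 UMI in the wild-type-labelled ones, a ratio of 622 (110 to 24701). Il13, a type 2 cytokine, was at 43.1 CPM with 55.2% of its UMIs in 1 cell, and had 0 UMIs in the wild-type-labelled co-producers, which allows up to 0.343 CPM.

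Calcium pathway genes had 3 of 12 higher and 0 lower, with a median of 0.44. They were Nfatc1, Orai1, the plasma membrane channel that opens when stored calcium runs out (338 against 128 CPM, 2.65-fold higher, 2.42 to 2.90), and Itpr1, the channel that empties the calcium store (141 against 39.96 CPM). Nfatc2 was at 7.39 against 16.7 CPM, under the floor of 20 CPM. The IL-2 receptor and STAT5 list had 0 of 11 called, with a median of 0.10 that was -0.11 under TMM, and the NF-kappaB list 1 of 13, with a median of 0.18 that was -0.03 under TMM.

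Lower in the deficient-labelled co-producers were 7 of 16 sterol and lipid synthesis genes, with 0 higher and a median of -0.87. Hmgcs1, Fdps, Cyp51, Msmo1, Sc5d and Insig1 were among them. Msmo1, a demethylase of the cholesterol pathway, stood at 29.5 against 110 CPM, 3.71-fold lower (2.92 to 4.78), and Fdps at 43.1 against 103 CPM, with a UMI in 37.9% against 72.5% of cells. Of 14 genes of the ATF4 stress and amino acid supply list, 5 were lower (Trib3, Chac1, Asns, Psph and Slc7a5) and 0 higher, with a median of -0.69. Asns, asparagine synthetase, was at 66.1 against 163 CPM, 2.47-fold lower (2.10 to 2.93). In all other kept cells the same contrast gave -2.01 for Fdps, -2.03 for Msmo1 and -0.85 for Asns, all below 0 as in the co-producers. Under the 5 alternatives 6 to 9 genes of the sterol list and 6 or 7 of the ATF4 list were lower. Among single genes AA467197 was at 27.1 against 369 CPM, 13.6-fold lower (10.7 to 17.7), Pdpn, a mucin-type protein of type 17 cells and stroma, was at 0.821 against 26.9 CPM, and Id3, an inhibitor of E proteins, was at 36.1 against 156 CPM. Of 15 G2/M genes 8 were higher and 0 lower, with a median of 1.0, and of 15 S-phase genes 7 were higher and 0 lower, with a median of 0.95, but 0 of the G2/M genes were called by a mean over per-cell values. None were called with the mitosis-rich cells left out either, from which nothing is read, since UMIs of that list picked those cells.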

How the data were processed

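Tc17-polarised CD8 T cells from 1 wild-type-labelled and 1 Nfatc1-deficient-labelled library were profiled with 10x Genomics single-cell 3′ chemistry version 3.1, as the labels' protocols say. Per gene and barcode, the deposited files hold raw counts of UMIs, which the authors made with Cell Ranger 7.0.0, per the file headers, on mm10, per the submitters' processing notes. The annotation and the handling of intronic reads were not given in the sources used here. Counts of 12 multiplexing tags (3.83% and 4.20% of all counts) were kept out. Of 1149 and 754 barcodes, 1018 (88.6%) and 709 (94.0%) were kept, with 500 or more genes and a mitochondrial share of UMIs of 10% or less. Scrublet (in scanpy 1.11.5, expected rate 5%) called 5 (0.491%) and 6 (0.846%) doublets, too few in the first library to show that it worked, and they were kept.

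UMIs were summed per class and library and divided by the class total to give CPM. Log2 ratios used a pseudocount of 1 CPM, which understates low genes, while folds are ratios of CPM without it. Intervals are 95%: exact binomial (Clopper-Pearson) for shares, exact Poisson for sums and conditional binomial for folds, and those of sums and folds treat UMIs as independent. A sum of 0 is given with the level that 3 counts would have. No test was run, since each group has 1 library. The size rule asks for 20 CPM and a 1.5-fold difference between classes, the same way in both libraries, or 2-fold between libraries. Either side of a comparison could reach the 20 CPM, so a low gene entered only through the side where it was high.

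Named genes are the 12 with the largest ratios each way against Il17a producers without Il2 and between libraries, the 8 each way against all other kept cells, a set of lineage and cytokine genes, and, from each of 30 gene lists, the 2 members with the highest and the 2 with the lowest ratios. The text gives a part of these, and some genes are not reported here. Genes listed as the members of a count were chosen after their values were seen. The members and lists were chosen with earlier results of these data known. Of the gene identifiers 99.8% were found in GENCODE M21, and promoters came from RefSeq on GRCm38.p6.

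Alternatives were edgeR 4.0.16 TMM factors (R 4.3.3), a mean over per-cell CPM, cells thinned to 5000 UMIs, other pseudocounts, floors, fold sizes, Il2 cutoffs and mitochondrial limits, and called doublets left out. The scripts were tested on simulated data for the comparison with Il17a producers without Il2: of 50 genes simulated at each fold the rule called 0 at 1.25-fold, 49 at 2-fold, 50 at 3-fold and 50 at 4-fold, and it called 0 of 5129 genes simulated without a difference. The simulated sums had Poisson counting error only, without the spread between cells, and the changed genes all lay above the floor. The simulation therefore checks the scripts and gives no rate of false calls for these data. Python 3.11.15, NumPy 2.4.6, SciPy 1.17.1, pandas 2.3.3 and matplotlib 3.10.9 were used.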

Additional observations from a re-analysis of the deposited data

Results flagged for a closer look

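Some genes differed between co-producers and other cells in opposite directions in the wild-type-labelled and the deficient-labelled library, with at least a 1.5-fold difference in each. Whether the libraries differ in these contrasts was not tested. Values are log2 ratios of CPM plus 1, the wild-type-labelled library first.

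Against Il17a producers without Il2, Gzmb, the granule protease granzyme B, had ratios of -2.91 and 2.52 (4.11 against 37.4 CPM and 29.5 against 4.32 CPM). In the deficient-labelled co-producers 47.2% of its 72 UMIs came from 1 cell, and 15.8% of the cells held any. Gzmc, a related granzyme, had -3.66 and 4.68, with 81.6% and 88.3% of its co-producer UMIs in 1 cell each. Csf2, which encodes the growth factor GM-CSF, had -1.69 and 6.10. Its levels were 47.0 against 154 CPM and, in the deficient-labelled library, 127 against 0.863 CPM, the last being 1 UMI. Without the top cell of each class Csf2 was at 29.6 against 15.2 CPM in the wild-type-labelled library and at 57.9 against 0 CPM in the deficient-labelled one, where 3 UMIs of the whole class would be 2.59 CPM, so the wild-type-labelled direction turned. Il21, a cytokine of type 17 and follicular helper cells, had 0.90 and -0.79 (48.6 against 25.6 CPM and 23.0 against 40.6 CPM).

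Against all other kept cells, Xcl1 had 0.97 and -0.72 (8789 against 4498 CPM and 18693 against 30714 CPM), Csf2 had -0.94 and 3.46, Gzmc had -3.52 and 0.91 (-0.24 for the second by a mean over per-cell CPM, and 10.7 against 39.4 CPM there without the top cell of each class), and Myo1h had 0.71 and -1.47. Genes of DNA synthesis and division went the same way as each other: Birc5 had -1.31 and 0.91, Rrm2 had -2.29 and 0.87, Tyms had -1.67 and 0.96, and Mki67 had -0.87 and 1.22. In thinned cells the deficient-labelled ratio of Birc5 was -0.02 and the wild-type-labelled ratio of Mki67 was 0.36, so these 2 no longer pointed in opposite directions. Beside these, cells rich in G2/M transcripts were 7.82% of the wild-type-labelled co-producers and 12.7% of the other wild-type-labelled cells, and 8.42% and 8.14% in the deficient-labelled library. In the deficient-labelled co-producers 8 cells made up that share, and their part in the ratios was not tested.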

How the results depend on the processing

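Of 100 recomputed counts and shares 71 stayed within 1.5 times of, or within the interval of, the reported value and 29 did not. The wild-type-labelled share of co-producers was 39.7% at an Il2 cutoff of 5 and 32.5% at 20. Genes higher against Il17a producers without Il2 (71) numbered 163 at a floor of 1 CPM, 20 at 2-fold, 156 with TMM factors, 39 by a mean over per-cell CPM and 38 without cells rich in G2/M transcripts. Genes lower there (340) numbered 1066 at a floor of 1 CPM, 154 at 50 CPM, 83 at 2-fold and 198 with TMM. Against all other kept cells, genes higher (30) numbered 75 at a floor of 1 CPM, 17 at 50 CPM and 8 at 2-fold, and genes lower (27) 189, 9 and 9, then 58 by per-cell means, 85 in thinned cells and 48 without the top cell of each gene. Between libraries, genes higher (285) numbered 963 at a floor of 1 CPM, 139 at 50 CPM, 794 at 1.5-fold and 186 with TMM, and genes lower (75) numbered 425, 43, 209 and 121, and 168 in thinned cells. The TMM factors themselves set the shift in median; other causes were not tested. Leaving out the top cell of each gene and the cells rich in G2/M transcripts were chosen after seeing the data.

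Of 627 results for named genes under 5 alternatives, 10 values that had passed the size rule changed sign. In thinned cells these were Il3 between libraries (-0.75, and -0.24 by per-cell means) and against other kept cells (-0.23), Csf2 between libraries (-0.50) and, against Il17a producers without Il2 in the deficient-labelled library, Cdca3 (2.90), Aurka (0.76), Maf (0.26), Sesn2 (-0.29) and Dlg2 (-0.25, and -0.32 by per-cell means). Values short of the size rule also changed sign, 138 with a size over 0.1 on either side. Among them were Penk against Il17a producers without Il2 in the deficient-labelled library (0.83, then -0.45 by per-cell means and -0.59 in thinned cells) and, in thinned cells, Mcm4 between libraries (0.95, then -0.87). The cause was not tested. No paired analysis was possible because each genotype had 1 library, which also left no replicate to leave out. Of the classes described gene by gene, the 25 wild-type-labelled cells with Ifng and Il2 give the lowest depth, where 1 UMI equals 1.66 CPM, and the 43 deficient-labelled Il17a producers without Il2 the next, at 0.863 CPM.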
